A study of Mus musculus with 7 samples.

Results

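Primary cilium and tubulin genes were followed in EpCAM-positive cholangiocytes, the epithelial cells that line the bile ducts. The members were all rows of the count table whose gene symbol belongs to 1 of these families by name. They are the intraflagellar transport genes (Ift with a number), the Bardet-Biedl genes (Bbs), the kinesin-2 and dynein-2 motor genes (Kif3a to Kif3c, Kifap3, Dync2), the nephronophthisis and tectonic genes (Nphp, Tctn), Arl13b, Inpp5e and the alpha, beta and gamma tubulins. This gave 54 of 24552 genes, of which 36 were cilium genes and 18 were tubulin genes. The rule uses symbols and no measured value, though it was set with earlier results of these data known.

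The cells came from livers of mice with the genotype Foxp3GFPDTR, in which Foxp3-expressing regulatory T cells carry the receptor for diphtheria toxin. Every animal received a diet with DDC, which injures bile ducts, for 10 days. The DT group (3 libraries) was injected intraperitoneally with diphtheria toxin at 1 µg/kg every 48 h, and the PBS group (4 libraries) with saline on the same schedule. There was no group without DDC and none without the transgene, so the groups differ in the injection alone as labelled. The labels used here give no age, no sex and no pooling, and do not tie libraries to individual animals. The p-values therefore reflect the scatter of these 7 libraries, part of which may be technical.

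The primary cilium of a cholangiocyte is a single microtubule-based projection into the duct lumen that senses bile flow, osmolarity and bile composition. It is built and kept up by intraflagellar transport, in which kinesin-2 carries IFT-B trains outward and dynein-2 carries trains with IFT-A back, while the BBSome moves membrane proteins and the transition zone gates the base. Its axoneme is made of alpha and beta tubulin, but the same tubulins form the microtubules of the whole cell body and the mitotic spindle, so tubulin reads do not measure cilia.

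Total counts ran from 4805018 to 6285624 per library. Counts above 0 were found for 5419 (DT 1) to 8361 (PBS 4) genes. Values are given as CPM, counts scaled to a common library size with TMM factors. The libraries read transcript 3′ ends, so a count is not spread over the length of the transcript, and CPM was not divided by length. All 16 cholangiocyte markers had reads, and their sum made up 2.54% to 2.66% of the counts of DT libraries and 2.33% to 2.74% of those of PBS libraries. Hepatocyte markers (4 of 16 at 0 in every library, among them Tat and Cyp3a11) made up 0.393% to 0.471% in DT and 0.239% to 0.347% in PBS libraries, with no overlap. Y-linked genes had 1681, 1045 and 880 counts in DT 1 to 3, 2048 in PBS 1 and 0 in PBS 2, PBS 3 and PBS 4. These reads nearly followed the groups. A difference in sex, which the labels do not give, therefore cannot be cleanly told apart from the injection. Macrophage markers (1 of 9 at 0 everywhere) made up 0.138% to 0.141% of counts in DT libraries and 0.0910% to 0.153% in PBS libraries. In this list Cd14 alone averaged 6373 counts over the 7 libraries, where the list summed to 4494 to 8884 counts per library. The share therefore mostly reflects Cd14. T and NK cell markers had at most 1 count per library, with 8 of 9 at 0 throughout, Foxp3 included, and all 5 B and plasma cell markers were at 0. Endothelial, stellate and mesothelial marker sums stayed at or under 0.0140% of the counts of each library. The mesothelial sum, from 1 of 4 markers, was 0, 33.1 and 0 CPM in DT 1 to 3 and 61.7, 68.4, 139 and 82.9 CPM in PBS 1 to 4, with all DT libraries below all PBS libraries, and its part in the results was not tested.

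One sequence feature that the choice by name did not use was counted in the promoters. RFX factors, which drive ciliary genes in mammals and worms, bind the X-box, an imperfect inverted repeat whose half-site can be written GTTGCC. RefSeq promoters from 250 bases before to 50 bases after the gene start were matched by symbol for 30 cilium genes and 14 tubulin genes. GTTGCC was found on either strand in 16 of the 30 cilium promoters (53.3%) and in 2 of the 14 tubulin promoters (14.3%), against 14.1% of all 27025 promoters. An inverted repeat with a spacer of 2 bases was written as GTTNCC, any 2 bases and then GGNAAC. It was found in 2 cilium promoters (6.67%, Bbs7 and Tctn1), in 0 tubulin promoters and in 0.529% of all promoters. Repeats with a spacer of another length were not counted. Any match has the start of a repeat, GTTNCC, but not always the half-site GTTGCC. A looser spelling, GTTNCC, any 5 bases and then AAC, was found in 4 cilium promoters (13.3%) against 1.56% of all promoters, and a stricter one, GTTNCC, any base and then TGGNAAC, in 1 (3.33%) against 0.389%. The promoters of the cilium genes had a median GC content of 58.0% and those of the tubulins 59.3%, against 52.8% for all, and the part of base composition in these shares was not tested. CCAAT was present in 20 cilium promoters (66.7%), 8 tubulin promoters (57.1%) and 41.1% of all, and TATAAA in 1 (3.33%), 2 (14.3%) and 15.7%. A match describes letters in a window and is not a measured binding site.

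Promoters of 4 genes are printed here. Kif3a and Kif3b, partners in the same motor, show a promoter with and one without the exact spelling GTTGCC. Ift57 is the tested cilium gene whose groups did not overlap. Tuba1c is the most read tubulin and an exception among tubulins in holding GTTGCC. They lie in GRCm38.p6 at chr11:53567119-53567418 (Kif3a), chr2:153291166-153291465 (Kif3b), chr16:49699044-49699343 (Ift57) and chr15:99029641-99029940 (Tuba1c), each on the plus strand. Each is written 5′ to 3′, and capitals mark GTTGCC or its reverse complement GGCAAC.
Kif3a: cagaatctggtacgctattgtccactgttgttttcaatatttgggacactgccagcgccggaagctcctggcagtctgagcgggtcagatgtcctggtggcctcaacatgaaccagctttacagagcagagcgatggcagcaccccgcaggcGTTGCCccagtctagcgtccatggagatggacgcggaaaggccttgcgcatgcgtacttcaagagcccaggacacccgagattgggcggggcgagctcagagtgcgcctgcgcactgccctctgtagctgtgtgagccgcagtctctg
Kif3b: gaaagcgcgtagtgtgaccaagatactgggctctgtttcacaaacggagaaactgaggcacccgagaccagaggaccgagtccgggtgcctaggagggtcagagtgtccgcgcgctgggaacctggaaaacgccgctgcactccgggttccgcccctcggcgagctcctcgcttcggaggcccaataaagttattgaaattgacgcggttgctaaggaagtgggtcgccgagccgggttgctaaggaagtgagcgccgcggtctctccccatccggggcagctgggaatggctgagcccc
Ift57: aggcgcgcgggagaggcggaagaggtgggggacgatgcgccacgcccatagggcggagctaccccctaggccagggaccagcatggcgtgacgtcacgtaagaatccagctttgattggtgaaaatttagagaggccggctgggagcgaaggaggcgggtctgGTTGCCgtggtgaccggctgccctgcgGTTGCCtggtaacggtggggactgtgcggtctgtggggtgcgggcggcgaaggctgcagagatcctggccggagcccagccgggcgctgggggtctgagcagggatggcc
Tuba1c: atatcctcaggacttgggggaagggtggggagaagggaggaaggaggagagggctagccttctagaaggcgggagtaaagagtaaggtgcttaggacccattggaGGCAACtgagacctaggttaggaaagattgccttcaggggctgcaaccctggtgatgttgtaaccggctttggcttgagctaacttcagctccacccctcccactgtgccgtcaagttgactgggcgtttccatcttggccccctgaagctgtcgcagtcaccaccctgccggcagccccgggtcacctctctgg
Kif3a held 1 half-site, 98 bases before the gene start, and Tuba1c held 1 in the reverse orientation, 145 bases before it. Ift57 held 2, at 87 and 60 bases before the start, and Kif3b held 0 in this exact spelling. Other spellings of a lone half-site were not counted. The Ift57 half-site at 60 bases was followed by t and then ggtaac, an inverted repeat with a spacer of 1 base. None of the repeat spellings counted above covers that spacer.

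Most cilium genes were read thinly. Of the 36 cilium genes, 32 had a read in some library, 4 had reads in all 7 (Ift20, Kif3a, Kif3b and Dync2li1), and 19 passed the filter on low counts and were tested. Those never read included Bbs10 and Kif3c. Of the 18 tubulins, 12 had a read, 7 had reads in all 7 libraries and 9 were tested. The 6 never read were Tuba3a, Tuba3b, Tuba8, Tubb1, Tubb3 and the pseudogene Tubb2a-ps2. A gene kept by the filter needs reads in at least part of the libraries, so the 28 tested members do not stand for all 54. The 36 cilium genes together held 607.8, 953.8 and 808 CPM in DT 1 to 3 and 1021, 1062, 837 and 908 CPM in PBS 1 to 4. The 18 tubulins together held 3146, 2471 and 2601 CPM in DT 1 to 3 and 2156, 1327, 2168 and 2176 CPM in PBS 1 to 4. DT 1, the library with the fewest genes read, also had the fewest cilium genes read, with 11 of 36 against 16 in DT 2 and 18 in DT 3, and 16, 20, 14 and 20 in PBS 1 to 4.

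**Figure D1:**
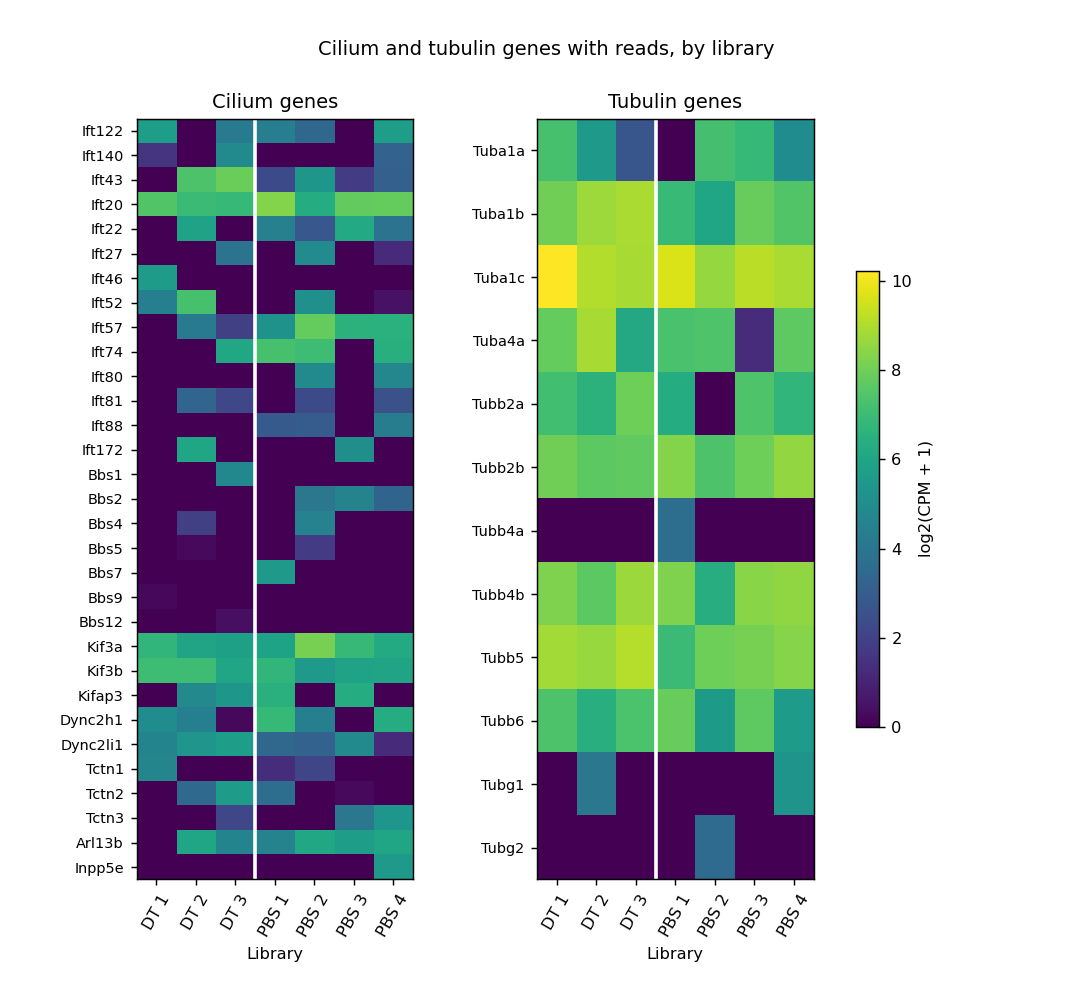
Heat map of log2(CPM + 1) for 31 of the 32 cilium genes (left; 1 is not shown) and the 12 tubulin genes (right) with reads, with libraries as columns (DT 1 to 3, then PBS 1 to 4, parted by the white line). Ift20, Kif3a and Kif3b form bands across all columns among mostly dark cilium rows, while Tuba1c, Tubb5, Tubb4b and Tubb2b are bright throughout.

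No cilium or tubulin gene passed the test of DT against PBS. Of all 7688 genes tested with the edgeR quasi-likelihood test, 3 had an adjusted p below 0.05 (0.0390% of genes, none of them a member), and 0 of the 28 tested members did. DESeq2 called 111 of the 6970 genes to which it gave an adjusted p (1.59%), and limma-voom called 0.156% of 7688. Each called 0 members, but DESeq2 gave Ift88 and Bbs2 no adjusted p, so it could not call them. At an unadjusted p below 0.05, 3.50% of all genes and 4 of the 28 members passed, of which Tuba1b and Tubb5 had higher values in DT (1.39% of all genes) and Ift88 and Bbs2 lower values (2.11%). Ift88 and Bbs2 had no reads in DT and passed the low-count filter only through 3 PBS libraries each, so the filter fixed their direction and nothing is read from it. In 2 members every DT library lay above every PBS library (3.73% of all tested genes) and in 1 member below (2.58%), so that 3 of 28 had no overlap, against 6.31% of all tested genes. Each tested member had an edgeR adjusted p of 1.00. In bulk libraries, fewer cells of a type and less RNA per cell cannot be told apart.

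Both motor subunits of outward transport were read in every library. Kif3a, the kinesin-2 motor subunit whose loss abolishes cilia in mice, had 104, 62.0 and 55.6 CPM in DT 1 to 3 and 60.2, 279, 113 and 76.0 CPM in PBS 1 to 4. The groups overlapped, and PBS 2 was the highest library. Its log2 fold change was -0.84 (SE 1.17), and -0.17 without PBS 2. Kif3b, its motor partner, had 130.4, 132 and 65.8 CPM in DT 1 to 3 and 107, 45.7, 57.7 and 61.8 CPM in PBS 1 to 4, with a log2 fold change of 0.69 (SE 1.47). DT 1 and DT 2 were above all PBS libraries, but DT 3 lay inside their range. Kifap3, which joins the motor to cargo, had reads in 4 of 7 libraries, at 0, 27.2 and 41.4 CPM in DT 1 to 3 and 88.3, 0, 80.5 and 0 CPM in PBS 1 to 4. The kinesin-2 genes together held 235, 221 and 163 CPM in DT 1 to 3 and 255, 324, 251 and 138 CPM in PBS 1 to 4, so that their ranges overlapped.

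Among the 11 IFT-B genes with an Ift symbol, whose products form part of the trains that kinesin-2 carries, Ift20 was the best read. Ift20 also links the trains to the Golgi apparatus. It had 174, 126 and 113 CPM in DT 1 to 3 and 324, 79.5, 219 and 225 CPM in PBS 1 to 4, a log2 fold change of -0.62 (SE 0.68), with all 3 DT libraries inside the PBS range. Ift57, a peripheral IFT-B subunit that contacts kinesin-2, had 0, 18.2 and 2.82 CPM in DT 1 to 3 and 36.3, 223, 93.1 and 90.8 CPM in PBS 1 to 4. Every DT library was below every PBS library, and it was the sole tested cilium gene whose groups did not overlap. The log2 fold change of Ift57 was -3.98 (SE 2.36, unadjusted p = 0.0990, edgeR), with extremes of -6.27 and -3.39 over fits that each lacked 1 library. Ift88, a core subunit of IFT-B whose mutation causes polycystic disease in mice, had 0 CPM in each DT library and 6.41, 6.90, 0 and 18.8 CPM in PBS 1 to 4. PBS 3 was at 0 as well, so the groups touched. It had to have reads in 3 libraries to be tested, and without PBS 1, PBS 2 or PBS 4 it was not. The other tested IFT-B genes were Ift22, Ift52, Ift74 and Ift81, with log2 fold changes of -0.56, 2.75, -1.98 and 0.96 (SE 3.10, 3.10, 2.41 and 2.99). Ift27, Ift46, Ift80 and Ift172 had reads in 1 to 3 libraries and were not tested. The IFT-B genes together held 243, 430.1 and 203 CPM in DT 1 to 3 and 538, 546, 419 and 465 CPM in PBS 1 to 4. DT 2 lay inside the PBS range, and DT 1 and DT 3 lay below it.

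The IFT-A genes serve the return journey and the entry of membrane proteins. Those with an Ift symbol had positive log2 fold changes in 3 of 3 tested members, where 49.3% of all tested genes were positive. Wdr35, an IFT-A gene without that symbol and no member, had -0.93 (SE 2.51). Ift43 had 0, 166 and 243 CPM in DT 1 to 3 and 3.88, 41.6, 2.47 and 7.70 CPM in PBS 1 to 4. DT 2 and DT 3 were above all PBS libraries, and DT 1 was below all of them. Its log2 fold change was 3.29 (SE 2.15, unadjusted p = 0.133, edgeR). Ift122 and Ift140 had 0.19 and 2.28 (SE 3.13 and 3.23). Of the return motor, dynein-2, the light intermediate chain Dync2li1 had 23.6, 39.6 and 51.5 CPM in DT 1 to 3 and 10.1, 8.28, 28.8 and 1.38 CPM in PBS 1 to 4. PBS 3 lay above DT 1 and below the other DT libraries, and the log2 fold change was 1.65 (SE 2.96). The heavy chain Dync2h1, which moves the complex along the microtubule, had 30.2, 20.5 and 0.176 CPM in DT 1 to 3 and 113, 20.5, 0 and 80.3 CPM in PBS 1 to 4, a log2 fold change of -1.66 (SE 2.86).

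The cargo adaptors and the gate at the ciliary base were close to the limit of what was read. All 6 BBSome genes with a Bbs symbol had reads somewhere, but of these Bbs2 alone was tested. Of 5 other BBSome genes and cofactors, which lack that symbol and are no members, 3 were tested (2 positive, 1 negative). Bbs2 had 0 CPM in each DT library and 0, 15.8, 22.9 and 8.88 CPM in PBS 1 to 4. It too was tested only through 3 PBS libraries, and not when PBS 2, PBS 3 or PBS 4 was left out. Bbs4 and Bbs5 had reads in 2 libraries each, and Bbs1, Bbs7 and Bbs9 in 1 each. Bbs12, a chaperonin-like gene for BBSome assembly, had 2 counts in DT 3 and none elsewhere. Of the nephronophthisis and tectonic genes, whose products gate or line the ciliary base, Tctn2 and Tctn3 were tested, with log2 fold changes of 2.68 and -3.54 (SE 3.35 and 3.76). Tctn1 had reads in 3 libraries and was not tested. Arl13b, the small GTPase of the ciliary membrane, had 0, 63.9 and 23.5 CPM in DT 1 to 3 and 22.7, 68.0, 50.3 and 63.6 CPM in PBS 1 to 4, a log2 fold change of -0.81 (SE 2.63). Inpp5e, the phosphoinositide phosphatase that Arl13b brings into the cilium, had reads in PBS 4 alone, at 44.8 CPM.

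**Figure D2:**
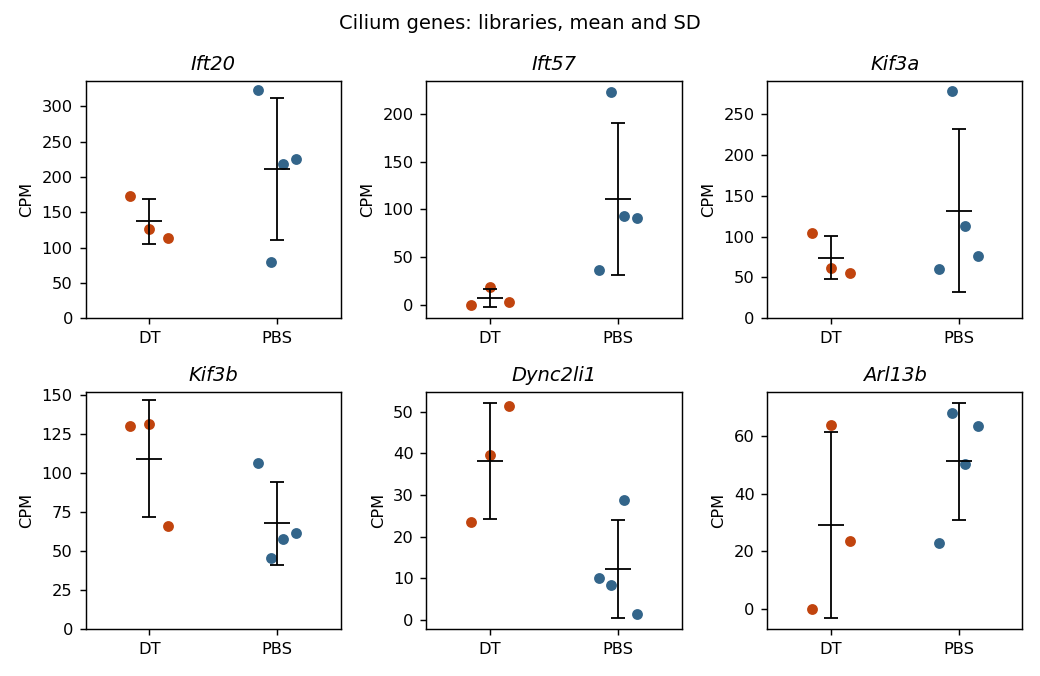
CPM (vertical axes, from 0 or just below) of 6 cilium genes in the 3 DT libraries (left, orange) and 4 PBS libraries (right, blue), with bars for mean and SD. In Ift57 the DT points (0 to 18.2 CPM) lie below all PBS points (36.3 to 223 CPM), and the groups of the other 5 genes overlap.

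Counts of 0 set the limit for the cilium genes. Of the 14 cilium genes with a mean of 10 to 50 counts, 68.4% of values were 0, against 74.7% for the 2005 other genes of the table at that level. At 50 to 200 counts the shares were 33.9% for 8 cilium genes and 47.6% for 3662 other genes, and at 200 to 500 counts 17.1% for 5 cilium genes and 17.2% for 2518 other genes. The 8 tubulins with a mean of 500 counts or more had 1 value at 0, which was Tubb2a in PBS 2. Absence of reads from a cilium gene in a library was therefore frequent at these levels in genes of any kind. The median SE of the log2 fold change was 2.96 over the 19 tested cilium genes, 0.53 over the 9 tested tubulins and 2.41 over all tested genes.

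**Figure D3:**
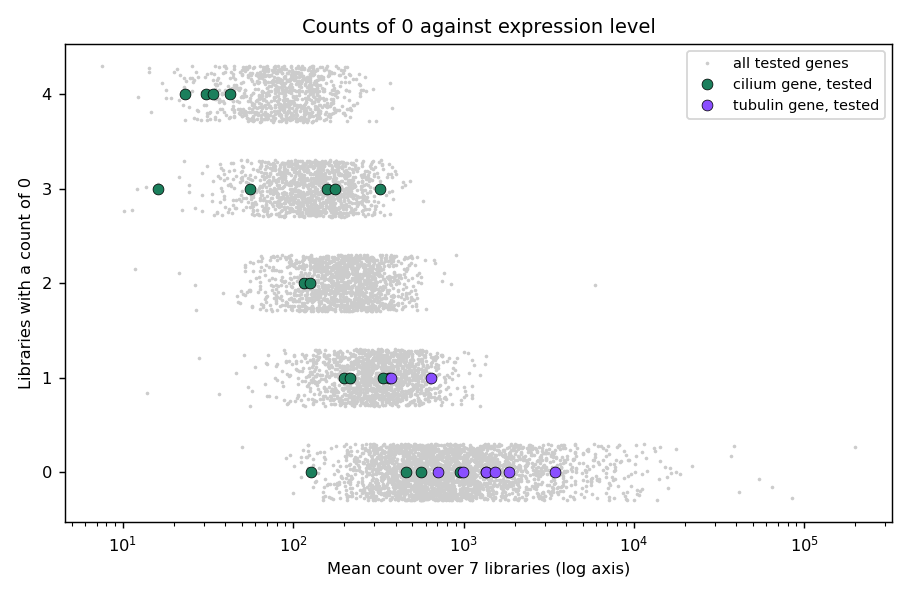
Libraries with a count of 0 (vertical axis; grey points for all tested genes are spread vertically for visibility) against the mean count over 7 libraries (log axis), with tested cilium genes in green and tested tubulins in violet. Tubulins sit at the right with 0 or 1 library at 0, and cilium genes spread from 0 to 4.

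The tubulin reads came mainly from a few isotypes, the separate genes for each tubulin chain. Averaged over the 7 libraries, Tuba1c had 638 CPM, followed by Tubb5 with 341, Tubb4b with 287, Tubb2b with 255, Tuba1b with 250.2 and Tuba4a with 186 CPM. Ift20 (180.03 CPM) was the one cilium gene above Tubb6 (134 CPM) and Tubb2a (119.8 CPM), and Kif3a (107 CPM) and Kif3b (85.7 CPM) were above Tuba1a (70.4 CPM). Neighbours in this order below Tuba1c differed by less than the spread of their libraries, and the order differed by group. In DT libraries Tuba1c (733 CPM) was followed by Tubb5 (468), Tuba1b (388), Tubb4b (305) and Tuba4a (256 CPM). In PBS libraries Tuba1c (567 CPM) was followed by Tubb2b (281), Tubb4b (274), Tubb5 (246) and Ift20 (212 CPM), which was above Tuba1b (146 CPM). The gamma tubulins, which start new microtubules at the centrosome and the ciliary base, had reads in 2 libraries (Tubg1) and 1 library (Tubg2). Tubb3 and Tubb1, known for neurons and for platelets, had none.

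Several tubulin rows are alike in coding sequence, and among Tuba1a, Tuba1b and Tuba1c reads could be shared. The coding sequences of Tuba1b and Tuba1a were identical at 98.3% of aligned bases, those of Tuba1b and Tuba1c at 98.4%, and those of Tubb2a and Tubb2b at 96.5% (GENCODE M21, GRCm38, another build than mm9, on which the counts were made). In the last 300 bases of the transcript, where 3′ reads fall, Tuba1b shared an identical run of 96 bases with Tuba1a and of 94 bases with Tuba1c, while Tubb2a and Tubb2b shared 8 bases at most. The last 60 coding bases of Tubb2b and Tubb2a, which encode the acidic tail by which tubulin isotypes are told apart, are printed to show how few bases part such a pair, with capitals for bases of Tubb2a that differ from Tubb2b. They lie at chr13:34127474-34127533 (Tubb2b) and chr13:34074471-34074530 (Tubb2a), both on the minus strand.
Tubb2b: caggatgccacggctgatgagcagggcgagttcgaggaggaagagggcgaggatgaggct
Tubb2a: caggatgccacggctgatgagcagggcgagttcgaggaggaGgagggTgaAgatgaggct
Tubb2a differed from Tubb2b at 3 of these 60 bases. How the authors assigned reads that match several genes is not given in the sources used here, so the split between Tuba1a, Tuba1b and Tuba1c is uncertain.

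Among the alpha tubulins, Tuba1b, a widely expressed isotype, had 259, 422 and 484 CPM in DT 1 to 3 and 118, 65.5, 228 and 175 CPM in PBS 1 to 4. Every DT library was above every PBS library. Its log2 fold change was 1.41 (SE 0.53, unadjusted p = 0.0115, edgeR adjusted p = 1.00), and it stayed between 1.16 and 1.69 when 1 library was left out. Tuba1c, the most read tubulin, had 1201, 530.9 and 468 CPM in DT 1 to 3 and 811, 388, 575 and 493 CPM in PBS 1 to 4. DT 1 was far above the rest, and the log2 fold change of 0.37 (SE 0.36) was -0.20 without DT 1. Tuba4a had 221, 474 and 72.1 CPM in DT 1 to 3 and 156, 172, 1.44 and 204 CPM in PBS 1 to 4, a log2 fold change of 0.94 (SE 1.07) that was 0.13 without DT 2. Tuba1a, prominent in neurons, had 149.5, 44.3 and 5.64 CPM in DT 1 to 3 and 0, 149, 114 and 30.2 CPM in PBS 1 to 4 (log2 fold change -0.14, SE 1.95). With the Tuba1a, Tuba1b and Tuba1c rows summed, an alternative chosen after seeing the data, DT 1 to 3 held 1611, 997 and 958 CPM and PBS 1 to 4 held 929, 601, 917 and 697 CPM. The groups of this sum did not overlap, though DT 3 and PBS 1 were close, and its log2 fold change was 0.60 (SE 0.29, unadjusted p = 0.0478, edgeR adjusted p = 1.00).

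Among the beta tubulins, Tubb5, the isotype found in most tissues, had 453, 406 and 544 CPM in DT 1 to 3 and 124, 250.4, 283 and 327 CPM in PBS 1 to 4. Every DT library was above every PBS library. Its log2 fold change was 0.93 (SE 0.45, unadjusted p = 0.0446, edgeR adjusted p = 1.00), with extremes of 0.69 and 1.09 over the fits that lacked 1 library. Tubb4b, an isotype of axonemes, had 302, 201 and 411 CPM in DT 1 to 3 and 303, 81.6, 340.3 and 372 CPM in PBS 1 to 4. All DT libraries but DT 3 lay inside the PBS range, and the log2 fold change was 0.15 (SE 0.51). Tubb2b had 255, 198 and 209.7 CPM in DT 1 to 3 and 324, 163, 252 and 383 CPM in PBS 1 to 4, a log2 fold change of -0.35 (SE 0.52). Tubb2a, its near neighbour on chromosome 13, had 139.9, 95.2 and 247 CPM in DT 1 to 3 and 80.0, 0, 169.7 and 106 CPM in PBS 1 to 4 (log2 fold change 0.85, SE 1.21). Tubb6 had 165, 83.9 and 158 CPM in DT 1 to 3 and 227, 47.1, 204 and 49.0 CPM in PBS 1 to 4 (log2 fold change 0.04, SE 0.90), with PBS 2 and PBS 4 below the rest.

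**Figure D4:**
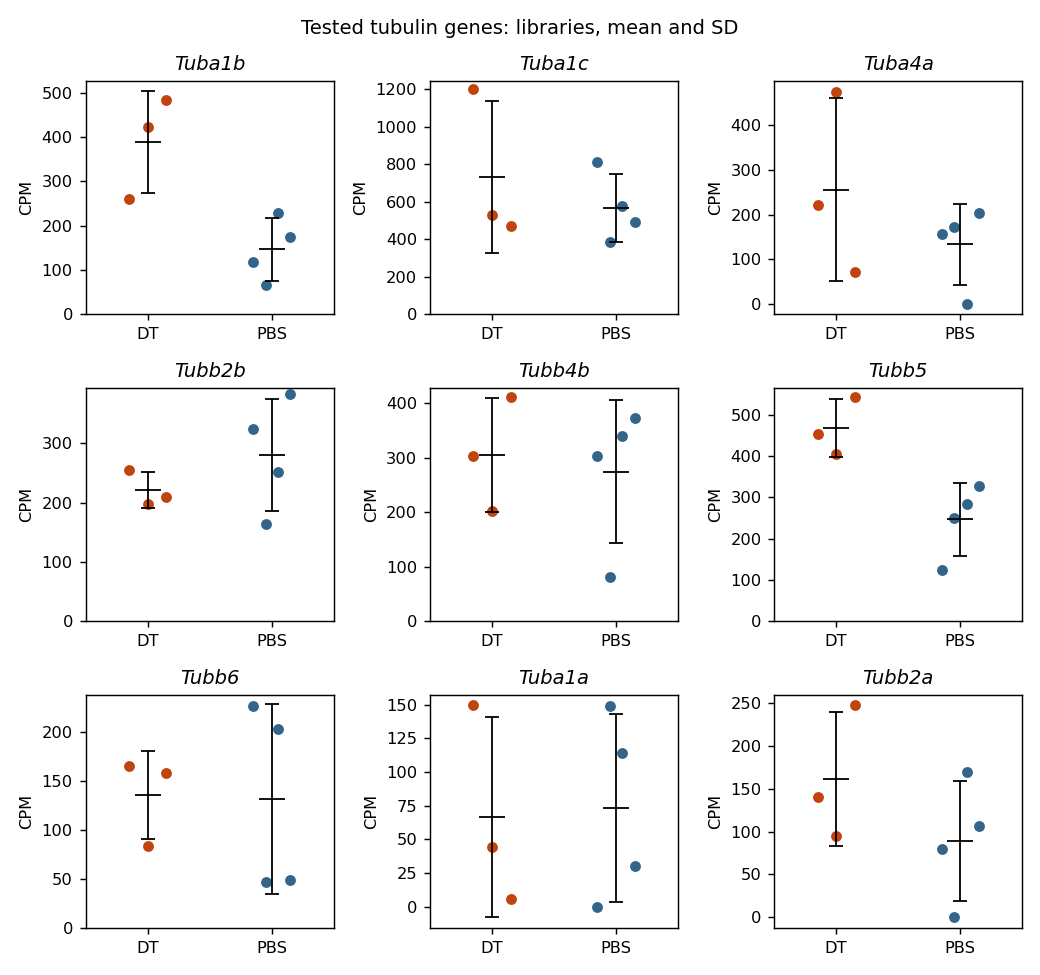
CPM (vertical axes) of the 9 tested tubulins in the 3 DT libraries (left, orange) and 4 PBS libraries (right, blue), with bars for mean and SD. In Tuba1b (259 to 484 CPM in DT, 65.5 to 228 CPM in PBS) and Tubb5 (406 to 544 CPM in DT, 124 to 327 CPM in PBS) the groups do not overlap.

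As a share of all alpha tubulin counts, Tuba1c made up 49.0% ± 15.1 in DT (SD, n = 3) and 60.5% ± 10.8 in PBS (SD, n = 4), and Tuba1b 29.9% ± 16.4 in DT and 15.9% ± 7.57 in PBS. Both shares overlapped between the groups. As a share of beta tubulin counts, Tubb5 made up 36.8% ± 3.88 in DT and 26.7% ± 14.4 in PBS, and Tubb2b 17.6% ± 3.70 in DT and 27.9% ± 5.13 in PBS. The Tubb2b shares were 19.4%, 20.1% and 13.4% in DT 1 to 3 and 30.3%, 30.1%, 20.2% and 30.9% in PBS 1 to 4, with DT 2 just under PBS 3. These shares were not tested.

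Cilium genes and tubulins differed in the sign of their medians but not in any gene that passed. The 19 tested cilium genes had 8 positive and 11 negative log2 fold changes with a median of -0.62, and the 9 tested tubulins had 7 positive and 2 negative with a median of 0.37. The 11 negative cilium genes include Ift88 and Bbs2, whose direction the low-count filter fixed. Neither was tested without PBS 2 (6 positive, 10 negative, median -0.41) or without PBS 4 (7 positive, 8 negative, median -0.60). Other cilium genes dropped out of those fits as well. Over all 7688 tested genes, 49.3% were positive and the median was -0.02. As a sum, cilium genes averaged 789.9 ± 174 CPM in DT (SD, n = 3) and 957 ± 103 CPM in PBS (SD, n = 4), and the ranges overlapped. The tubulin sum averaged 2739 ± 358 CPM in DT and 1957 ± 420 CPM in PBS (SD, n = 3 and 4), with every DT library above every PBS library. In each library the tubulin sum was divided by the cilium sum, which gave 5.18, 2.59 and 3.22 in DT 1 to 3 and 2.11, 1.25, 2.59 and 2.40 in PBS 1 to 4. DT 2 and PBS 3 had the same ratio to 3 digits. The difference between cilium genes and tubulins was not tested. Without DT 1 the median of the tubulins was -0.01, and with Y-linked reads entered as a yes-or-no covariate the median of the cilium genes was 0.22. That covariate sets the DT libraries against PBS 1, the sole PBS library with Y-linked reads.

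**Figure D5:**
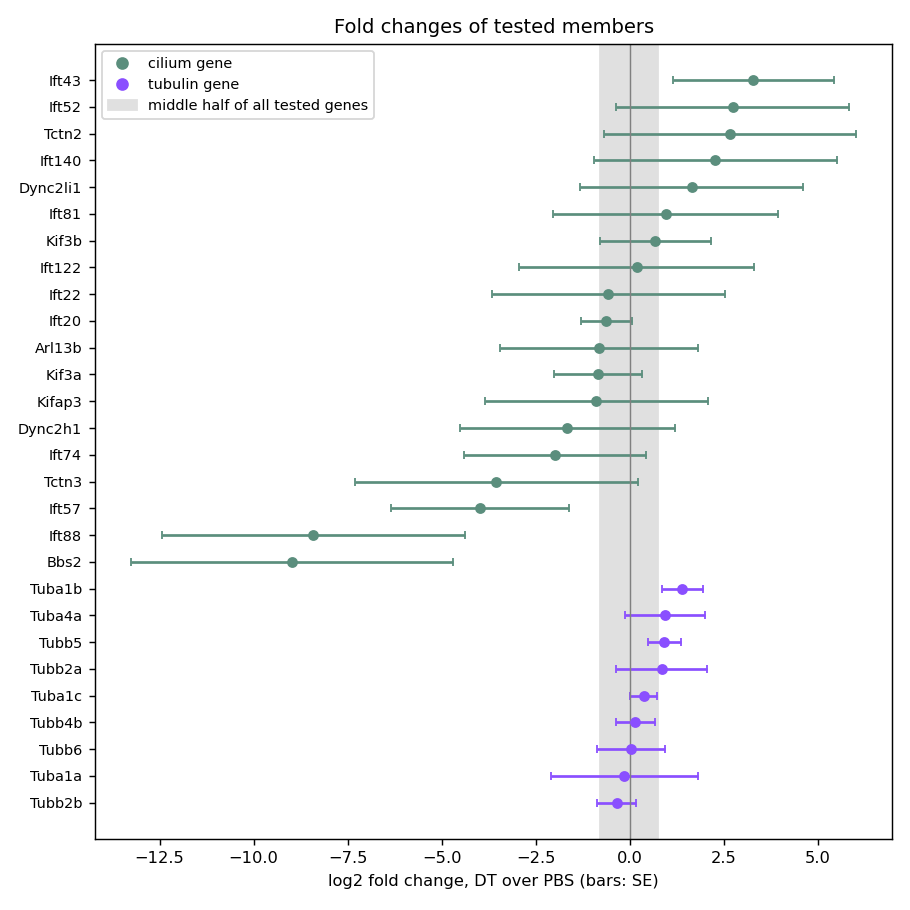
log2 fold changes of DT over PBS (horizontal axis) with SE bars for the 19 tested cilium genes (green, above) and 9 tested tubulins (violet, below), and the middle range of all tested genes (-0.78 to 0.75) in grey. The tubulins lie between -0.35 and 1.41 with short bars, and the cilium genes between -8.98 and 3.29 with long bars.

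Other measures were read beside the tubulin sum. Hepatocyte markers, whose sum likewise did not overlap, held 3990, 4251 and 5223 CPM in DT 1 to 3 and 2288, 2819, 2889 and 3767 CPM in PBS 1 to 4. Cell cycle markers, of which all 15 had reads, held 2055, 1099 and 1431 CPM in DT 1 to 3 and 1234, 724, 1190 and 1322 CPM in PBS 1 to 4. The groups of this sum overlapped, with DT 1 highest and PBS 2 lowest as in the tubulin sum. Within the list Ccnd1 alone averaged 3745 counts over the 7 libraries, where the list summed to 3673 to 12368 counts per library. Of 12 tested cell cycle genes 8 had positive log2 fold changes and 0 passed. The part of these cells and states in the tubulin values was not tested. With the covariate for Y-linked reads, the log2 fold changes were 1.72 for Tuba1b, 1.92 for Tubb5, -0.15 for Tuba1c, 0.30 for Kif3a, 0.04 for Kif3b, -1.23 for Ift20 and -2.37 for Ift57, and none passed. Among markers of multiciliated cells, which carry motile cilia, 12 of 16 were at 0 in every library, among them Dnah5, Hydin and Tekt1. The reads of this list came mostly from Foxj1, and its sum was 2.33, 71.4 and 54.9 CPM in DT 1 to 3 and 163, 74.3, 122 and 91.0 CPM in PBS 1 to 4. All DT libraries were below all PBS libraries in this sum, whose part in the cilium values was not tested.

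Genes of the same pathways that do not carry the members' symbols gave 0 passing genes as well, in lists chosen with earlier results of these data known. Of 91 listed cilium genes 89 were in the table and 47 were tested, 27 with positive and 20 with negative log2 fold changes and a median of 0.18. Of 72 listed tubulin and microtubule genes, all in the table, 50 were tested, with 23 positive and 27 negative and a median of -0.06. The transition zone list had 5 positive and 3 negative of 8 tested, and IFT genes without the Ift symbol 2 positive and 3 negative of 5. The tubulin folding list, which holds the CCT chaperonin and the cofactors that fold new tubulin, had 11 positive and 9 negative of 20 tested, with a median of 0.03. Its member with the smallest p was Cct4, with 326, 172 and 273 CPM in DT 1 to 3 and 31.1, 255, 89.2 and 173 CPM in PBS 1 to 4. Microtubule-associated proteins had 4 positive and 12 negative of 16 tested, with a median of -0.43, and the tubulin modification and gamma-tubulin ring lists 5 of 9 and 3 of 5 positive.

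Of these pathway genes, 4 of the 47 cilium genes and 0 of the 50 tubulin and microtubule genes had an unadjusted p below 0.05 by edgeR, against 3.50% of all tested genes, and each had an adjusted p of 1.00. Rab11a, a GTPase that brings membrane to the growing cilium and also recycles endosomes, had 45.0, 140.5 and 40.4 CPM in DT 1 to 3 and 210.4, 322, 221 and 325 CPM in PBS 1 to 4. All DT libraries were below all PBS libraries (log2 fold change -1.84, SE 0.70). Unc119b, a carrier of lipid-modified proteins into cilia, had 226, 196 and 154 CPM in DT 1 to 3 and 0, 46.9, 16.1 and 20.1 CPM in PBS 1 to 4, again without overlap but in the other direction (log2 fold change 3.21, SE 1.49). Pde6d, which likewise carries lipid-modified cargo and delivers Inpp5e, had 62.8, 3.00 and 62.4 CPM in DT 1 to 3 and 0 CPM in each PBS library, so that it was tested only through the DT libraries. Dynlt3, a light chain of dynein, had 613, 219 and 154 CPM in DT 1 to 3 and 46.6, 136, 142 and 183 CPM in PBS 1 to 4, and DT 3 lay inside the PBS range (log2 fold change 1.37, SE 0.62).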

How the data were processed

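Gene expression was measured in 7 libraries made with a QuantSeq FWD 3′ kit from 100 ng of total RNA, per the labels' protocols. The authors deposited raw read counts per gene symbol, and the submitters' processing notes name build mm9. For aligner, counting tool, annotation and molecular identifiers, nothing is given in the sources used here. Sample titles gave the groups and numbers.

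Counts were fitted with edgeR 4.0.16 (R 4.3.3): filterByExpr (7688 genes kept, 97.5% of counts), TMM factors, robust quasi-likelihood F test of DT against PBS, two-sided, with Benjamini-Hochberg adjustment over all tested genes and a threshold of 0.05. The SE was taken from the fold change and F. The members and gene lists were chosen with earlier results of these data known. Members were named with values if they passed, had reads in all 7 libraries, had an unadjusted p below 0.05 or had groups that did not overlap (14 genes). Other members named were chosen after their values were seen. Of each pathway list with at least 5 tested genes, up to 2 genes with the smallest p could be named. Wdr35 was named besides, as an IFT-A gene. The fit was run on simulated counts as a check of the code, and how many changes it would find in these data is not given here. Alternatives used limma 3.58.1 and DESeq2 1.42.0, and figures matplotlib 3.10.9. Same-numbered libraries did not deviate together (correlations of -0.0490 to 0.0259 over 733 genes), so the numbers were not taken as pairs. Sequences came from RefSeq (GRCm38.p6) and GENCODE M21. Some genes and sequences are not reported here.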

Additional observations from a re-analysis of the deposited data

Results flagged for a closer look

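Among 16 values searched for a PBS library apart from its group, where chance gives 0.80, there was 1. The DT libraries were not searched. The tubulin sum was 3146, 2471 and 2601 CPM in DT 1 to 3, above every PBS library. The tubulin sum of PBS 2 (1327 CPM) lay below PBS 1, PBS 3 and PBS 4 (2156, 2168 and 2176 CPM), and this gap was 0.976 of the range of the PBS group. PBS 2 also had the lowest Tuba1b, Tuba1c, Tubb2b, Tubb4b and Tubb6 of the PBS libraries, 0 counts of Tubb2a and the highest Kif3a and Ift57.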

How the results depend on the processing

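In 16 alternatives, 0 members passed in each. The 14 named genes had values in 12 (Ift88, Bbs2) to 16 (Tubb4b, Tubb5) of them, since a stricter filter, a left-out library or merged rows removed genes, and kept their sign there except as follows. Tuba1c was -0.15 and Kif3a 0.30 with Y-linked reads as a covariate, where Tubb6 was -0.74 and Bbs2 could not be estimated. Tubb6 was also -0.000414 with upper quartile factors and -0.00289 with the replicate block. When 1 library was left out, Tubb6 ran from -0.24 to 0.43, Tubb4b from -0.15 to 0.38, Tuba1c from -0.20 to 0.60, the count of all genes that passed from 1 to 5, the median of the cilium genes from -0.67 to -0.23 and that of the tubulins from -0.00527 (without DT 1) to 0.59. Genes that passed numbered 3 in the test reported, 8 with no filter, 5 when genes under a mean log2 CPM of 8 were dropped, 12 with the replicate block, 26 with the Y-linked covariate, 111 by DESeq2 and 12 by limma-voom. The tubulin median was 0.0802 with no filter, which adds thinly read genes, and 0.71 with the Y-linked covariate. With the replicate block the tubulin median was 0.52 and that of the cilium genes -0.41, and 1 of 3 DT libraries had its closest PBS library under its own number. Summing the near-identical tubulin rows was chosen after seeing the data and left the tubulin median at 0.37. Except for fewer libraries or another set of genes tested, the cause was not tested. Counts of 0 limit the cilium genes below a mean of about 500 counts. At a mean of 200 to 500 counts 17.1% of their values were 0, and the cause was not tested.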
